A study of Macaca fascicularis with 6 samples.

Results

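The kynurenine pathway turns dietary tryptophan into NAD, and its 9 genes TDO2, IDO2, AFMID, KMO, KYNU, HAAO, ACMSD, QPRT and NADSYN1 were examined here in macaque liver. The genes were chosen from the textbook pathway with earlier results of the same ligand comparison known, so their differences are given as a description, and counts of calls among them are printed beside those of the whole array with nothing read from them. All 19 probe sets whose only annotated symbol is one of the 9 genes were taken, of 54675 probe sets on the array. A probe set is a group of probes on an Affymetrix array read together as 1 signal. Each gene had at least 1 probe set bright enough for the fit across the array, which covered 16 of the 19 and 27304 probe sets in all.

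The liver came from 6 cynomolgus macaques (Macaca fascicularis), 1 animal on each array. LXR ligand had been given to 3 animals, whose arrays carry the letters GW in their titles, and vehicle to 3 animals. LXR, the liver X receptor, is a nuclear receptor that responds to oxidised cholesterol. The ligand's name, its dose, the length of treatment and the animals' age and strain were not given in the sources used here. The array was designed for human transcripts, so the macaque genes are called here by human symbols. How well each probe set matches the macaque transcript was not tested.

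In the liver, TDO2 opens the indole ring of tryptophan and is the usual entry to the pathway. AFMID releases kynurenine, KMO in the outer mitochondrial membrane hydroxylates it, and KYNU and HAAO carry the product on to an unstable intermediate. That intermediate either closes by itself to quinolinate, which QPRT and then NADSYN1 take towards NAD, or is drawn off by ACMSD to be burned. Liver is known as a main site of this route, and it exports nicotinamide made from the NAD.

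Array medians of the signal, an intensity in arbitrary units from the MAS5 software, were 129 to 139 on the ligand arrays and 111 to 139 on the vehicle arrays. Correlations between arrays over the tested probe sets (across genes, which do not stand for replicates) were 0.900 to 0.922. Ligand array 1 stood apart on the first principal component, which held 23.0% of the variance, at 89.8, while the other arrays lay between -36.8 and -0.632. The hepatocyte marker ALB, albumin, had signals of 129327 to 156353 in ligand livers and 121612 to 153778 in vehicle livers, and no defining marker of hepatocytes was near 0. In a piece of tissue, fewer cells of a type and less RNA in each cell cannot be told apart. With 3 animals a group, their number limits the precision of every value.

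On each gene's brightest probe set, KMO stood lower in the ligand livers and most other genes differed by less than their error. On the brightest KMO probe set the mean signal was 12374 ± 2142 in ligand livers and 22947 ± 2931 in vehicle livers (SD, n = 3 each). Of the 9 brightest probe sets, 7 had a log2 difference smaller than its SE, the exceptions being KMO and KYNU. Of all 16 tested probe sets, 10 had a difference smaller than its SE. The median log2 difference of the 9 genes was 0.024, against 0.0032 over all probe sets tested, with 5 genes higher and 4 lower.

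None of the 16 tested probe sets of the pathway passed limma's test after Benjamini-Hochberg adjustment, and neither did any probe set on the array: 0 of 27304 were called, or 0%. At an unadjusted p under 0.05 there were 2 of the 16, while 5.58% of all tested probe sets lay there. In 3 of the 16 all ligand arrays were below the vehicle arrays, against 4.96% of all tested probe sets. In 0 of the 16 all ligand arrays were above the vehicle arrays, against 5.99% of all. The comparison with ligand was known when the genes were chosen, so nothing is read from these counts.

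**Figure D1:**
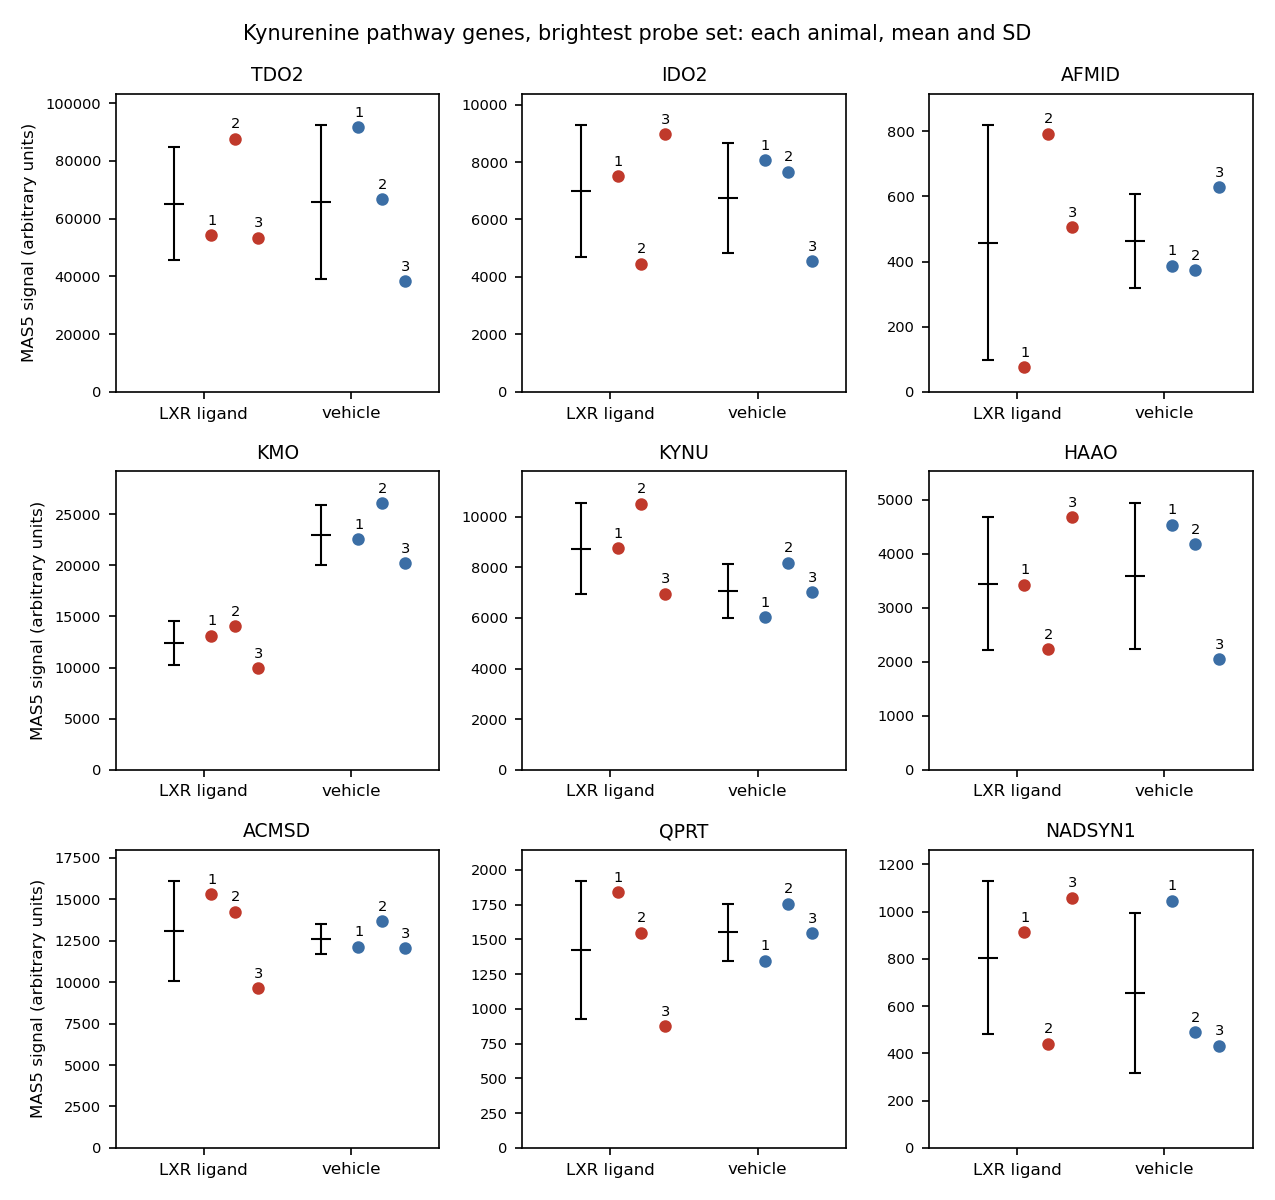
MAS5 signal (vertical axes, arbitrary units, each starting at 0) of the brightest probe set of each gene in the LXR ligand animals (red) and the vehicle animals (blue), numbered as in the labels; black marks are the group mean and SD (n = 3). KMO is the panel in which the groups do not overlap, with ligand animals at 9961 to 14054 and vehicle animals at 20219 to 26046.

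The entry step varied widely between animals of the same group. TDO2, the liver tryptophan dioxygenase, had signals of 54213, 87666 and 53401 in ligand animals 1 to 3, against 91627, 66822 and 38388 in vehicle animals 1 to 3. The highest and the lowest animal were both in the vehicle group, and the groups overlapped. The means were 65094 ± 19553 and 65612 ± 26640 (SD, n = 3 each) in ligand and vehicle livers, a log2 difference of 0.04 ± 0.30 (SE) that was -0.31 without vehicle array 3 and 0.32 without vehicle array 1. A dimmer TDO2 probe set had 408, 343 and 223 in ligand animals, against 472, 420 and 379 in vehicle animals, a log2 difference of -0.40 ± 0.31 (SE) that was -0.58 without ligand array 1 and -0.17 without ligand array 3. Its groups overlapped as well, ligand animal 3 being the lowest.

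IDO2, a second dioxygenase that acts on tryptophan, had signals of 7501, 4462 and 8963 in ligand animals 1 to 3, against 8056, 7665 and 4549 in vehicle animals 1 to 3. Each group held a single low animal, and the log2 difference was 0.03 ± 0.30 (SE).

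AFMID, the formamidase that frees kynurenine, had signals of 76.1, 792 and 505 in ligand animals 1 to 3, against 388, 373 and 628 in vehicle animals 1 to 3. Ligand animal 1 alone was far below the rest. The log2 difference of -0.46 ± 0.67 (SE) became 0.48 without that array and -1.09 without ligand array 2.

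KMO, the kynurenine monooxygenase, had signals of 13106, 14054 and 9961 in ligand animals 1 to 3, against 22575, 26046 and 20219 in vehicle animals 1 to 3, on its brightest probe set, 205306_x_at. Every ligand animal lay below every vehicle animal. The log2 difference was -0.90 ± 0.19 (SE), so that the signal in vehicle livers was 1.86 times that in ligand livers. The suffix x marks a probe set some of whose probes can also match other transcripts.

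A second KMO probe set, 211138_s_at, gave the same order of groups. Its signals were 6109, 8810 and 7283 in ligand animals 1 to 3, against 16253, 19752 and 12692 in vehicle animals 1 to 3. The groups were again apart, with a log2 difference of -1.12 ± 0.22 (SE), and the vehicle signal was 2.18 times the ligand signal. Both probe sets read the same gene in the same RNA, and they are not independent evidence.

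The remaining KMO probe set, 205307_s_at, close to the signal minimum for the fit, did not share the pattern. It had 147, 154 and 136 in ligand animals 1 to 3, against 90.8, 208 and 158 in vehicle animals 1 to 3. The ligand values lay inside the vehicle range, and the log2 difference was 0.01 ± 0.49 (SE).

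**Figure D2:**
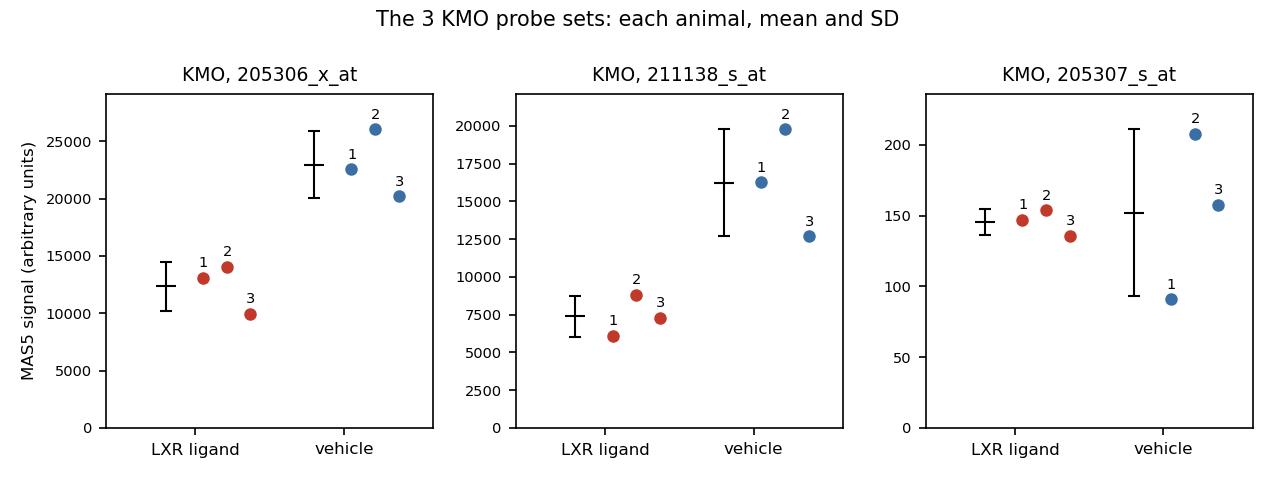
MAS5 signal (vertical axes, arbitrary units, each starting at 0) of the 3 KMO probe sets in the LXR ligand animals (red) and vehicle animals (blue), with group mean and SD (n = 3). The first and second probe sets separate the groups, with ligand animals at 9961 to 14054 and at 6109 to 8810; on the dim remaining one the ligand animals, at 136 to 154, lie inside the vehicle range.

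On both bright KMO probe sets every ligand animal lay below every vehicle animal, so leaving out any single array could not change the sign. Nothing is read from the sign, and only the sizes are given. The log2 difference of 205306_x_at was -0.997 when ligand array 2 was left out and -0.75 when ligand array 3 was, the ends of its range. For 211138_s_at the range was -1.29, with vehicle array 3 left out, to -0.97, with vehicle array 2 left out. Without ligand array 1, the array that stood apart, the values were -0.95 and -0.99. Under quantile normalization they were -0.87 and -1.11, and with each array centred on its median -0.94 and -1.17.

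Other measures also differed between the arrays behind the KMO values. KMO is known from hepatocytes and, in other tissues, from macrophages and microglia. The summed signal of 8 hepatocyte markers was 615351 to 670000 in ligand livers and 550943 to 669124 in vehicle livers, 2 overlapping ranges. ALB, APOA1, TTR and FGB make up most of that sum, so it says little of the dimmer markers. Gene by gene, 5 had a higher mean log2 signal in ligand livers and 3 a lower one. The log2 difference was -0.71 for TF, with 0.11 and 0.13 on its other probe sets, and 0.28 for AHSG. CPS1 and SERPINA1 were lower, and AHSG and TTR higher, on every tested probe set. SERPINA1 had a log2 difference of -0.10, with -1.30 and -0.27 on its other probe sets. ALB had 0.08, with -0.58 to 0.55 on its other probe sets. In limma 0 of these 8 genes passed, with 0 at an unadjusted p under 0.05. All 8 measured macrophage markers of 10 listed had higher mean log2 signals in ligand livers. Their summed signal was 18330 to 23822 in ligand livers and 11001 to 14410 in vehicle livers. CD14 was the brightest of the 8, at 7298 to 11647 in ligand livers and 6064 to 7298 in vehicle livers, with groups that just overlapped. The sum therefore says less of the dimmer macrophage markers. All 8 endothelial markers were likewise higher, with sums of 11032 to 13957 in ligand livers and 8510 to 10031 in vehicle livers, and no measured marker of either cell type was at 0. In limma 0 markers of either list passed over all probe sets tested. At an unadjusted p under 0.05 there were 5 of the 8 macrophage and 3 of the 8 endothelial markers, against 5.58% of all tested probe sets. The lists were chosen with earlier results of these data known, so nothing is read from these counts. The macrophage and endothelial sums went the other way from KMO, and their part in its difference was not tested.

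RNA quality was read from the log2 ratio of the 3' to the 5' control probe set of GAPDH, which was 1.38, 1.17 and 2.05 on ligand arrays 1 to 3 and 0.99, 1.32 and 1.70 on vehicle arrays 1 to 3. The ratio for the actin control was 2.62, 2.65 and 4.003 on ligand arrays and 2.15, 2.50 and 3.06 on vehicle arrays. Ligand array 3 had the highest ratio on both controls and the lowest signal of 205306_x_at. Without it the log2 differences of the bright KMO probe sets were -0.75 and -1.12.

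KYNU, the kynureninase that acts after KMO, had a higher mean in ligand livers on its brightest probe set, by little more than the error. Its signals on 217388_s_at were 8742, 10518 and 6959 in ligand animals 1 to 3, against 6027, 8172 and 7025 in vehicle animals 1 to 3. The groups overlapped, and the log2 difference was 0.30 ± 0.21 (SE), with 0.15 when ligand array 2 was left out and 0.45 when ligand array 3 was.

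The other KYNU probe sets did not agree on a size. Probe set 210663_s_at had 1954, 1442 and 692 in ligand animals, against 868, 759 and 591 in vehicle animals, a log2 difference of 0.76 ± 0.36 (SE) that was 0.45 without ligand array 1 and 1.18 without ligand array 3. Ligand animals 1 and 2 were above every vehicle animal and ligand animal 3 was not. Probe set 204385_at had a log2 difference of -0.06 ± 0.34 (SE) with overlapping groups. A further one, 210662_at, was too dim for the fit, at 5.55 to 17.2 in ligand animals and 3.73 to 66.6 in vehicle animals.

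HAAO, the dioxygenase that opens the ring of the hydroxylated product, had signals of 3425, 2229 and 4679 in ligand animals 1 to 3, against 4533, 4176 and 2051 in vehicle animals 1 to 3. The groups covered nearly the same range, with a log2 difference of -0.04 ± 0.34 (SE).

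ACMSD, the decarboxylase that draws the intermediate away from NAD, had signals of 15292, 14255 and 9637 in ligand animals 1 to 3, against 12136, 13667 and 12050 in vehicle animals 1 to 3. The vehicle animals lay close together, with an SD of 7.21% of the mean, and the ligand animals lay on both sides of them, with an SD of 23.0% of the mean. The log2 difference was 0.02 ± 0.20 (SE).

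QPRT, which commits quinolinate to NAD, had signals of 1840, 1548 and 876 in ligand animals 1 to 3, against 1347, 1756 and 1544 in vehicle animals 1 to 3. Ligand animal 3 was the lowest of all, and the log2 difference was -0.18 ± 0.29 (SE), or 0.13 without that array. The dimmer QPRT probe set had 650, 378 and 274 in ligand animals, against 304, 809 and 202 in vehicle animals, and a log2 difference of 0.13 ± 0.49 (SE).

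NADSYN1, which completes NAD by adding the amide, gave opposite signs on its tested probe sets. The brightest, 218840_s_at, had 913, 440 and 1060 in ligand animals 1 to 3, against 1046, 490 and 432 in vehicle animals 1 to 3, a log2 difference of 0.31 ± 0.41 (SE) that was 0.07 without ligand array 3 and 0.69 without vehicle array 1. The groups overlapped.

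Probe set 232946_s_at of NADSYN1 had 214, 178 and 280 in ligand animals 1 to 3, against 397, 311 and 390 in vehicle animals 1 to 3. Every ligand animal lay below every vehicle animal, with a log2 difference of -0.69 ± 0.32 (SE). The remaining NADSYN1 probe sets were too dim for the fit, at 44.2 to 127 in ligand animals and 28.7 to 104 in vehicle animals for 1565906_at, and at 17.7 to 48.6 in ligand animals and 11.3 to 32.4 in vehicle animals for 1565908_at.

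**Figure D3:**
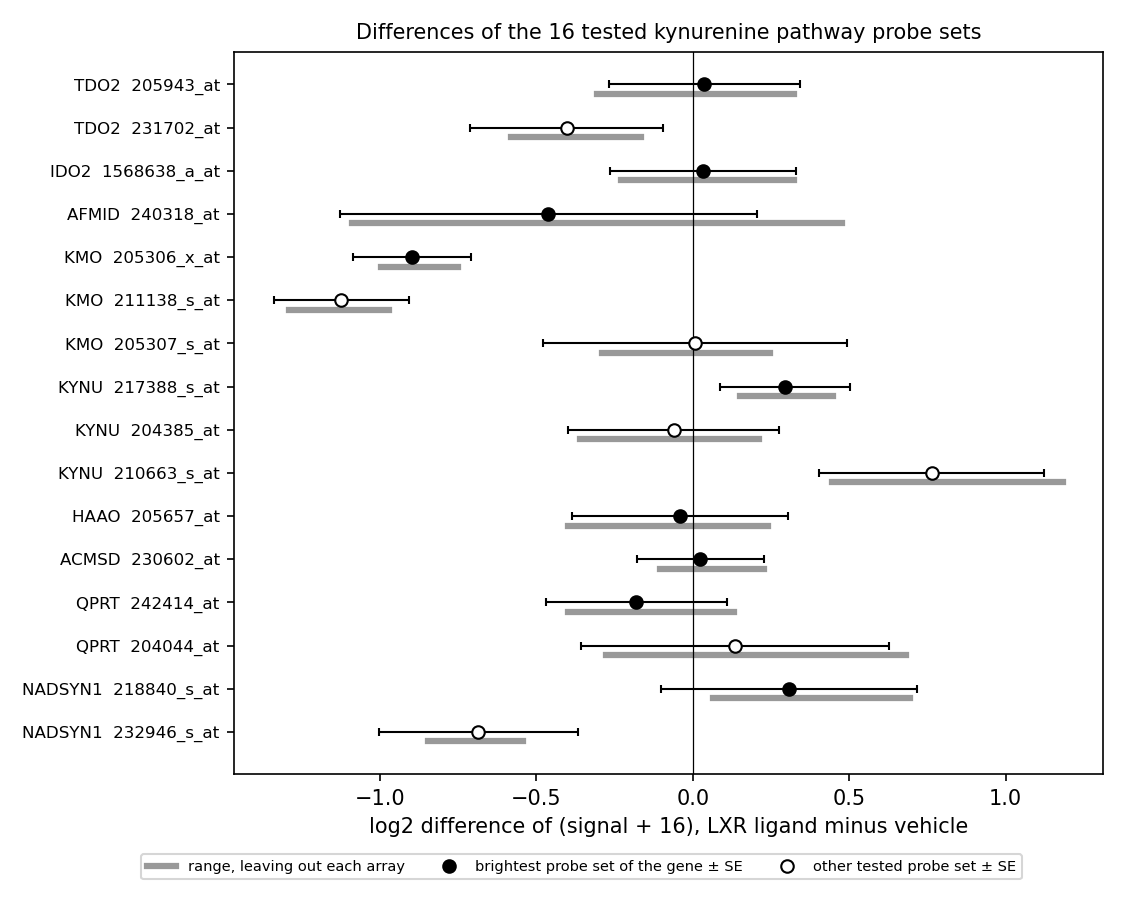
Log2 difference of (signal + 16), LXR ligand minus vehicle (horizontal axis), for the 16 tested probe sets of the pathway, in pathway order. Filled points are the brightest probe set of a gene, open points the others, bars the SE, and grey lines the range when each array was left out in turn; the bright KMO probe sets, at -0.90 and -1.12, and 232946_s_at of NADSYN1, at -0.69, are those whose groups do not overlap.

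The genes were also compared with each other over the 6 animals. IDO2 and HAAO were low in the same animals, ligand animal 2 and vehicle animal 3, which had 4462 and 4549 for IDO2 and 2229 and 2051 for HAAO. The other 4 animals had 7501 to 8963 for IDO2 and 3425 to 4679 for HAAO. Since the animals fell into separate sets on IDO2, no pooled correlation is given for that gene. These low animals came 1 from each group. Vehicle animal 3 had the second highest 3' to 5' ratio of the 6 arrays on both controls, 1.70 and 3.06, while ligand animal 2 had 1.17 and 2.65, and the part of RNA quality was not tested. On the brightest NADSYN1 probe set these animals were also the lowest, at 440 and 432, with vehicle animal 2 close to them at 490. TDO2 did not follow: ligand animal 2 was its second highest at 87666 and vehicle animal 3 its lowest at 38388.

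Among 36 pairs of the 9 genes, 0 had a correlation that passed an exact permutation test after Benjamini-Hochberg adjustment, and 3 had an unadjusted p under 0.05. The pairs of IDO2 with HAAO and with NADSYN1 were among these. ACMSD and QPRT were 1 of these 3, with Pearson's r = 0.931 (two-sided exact permutation p = 0.0153, adjusted p = 0.275) and Spearman's rho = 0.886 (exact permutation p = 0.0333, adjusted p = 0.300). Without ligand animals 1 and 3, the farthest from the median of ACMSD, r was 0.585 over the other 4 animals. Ligand animal 3 was the lowest on both genes and had the highest 3' to 5' ratios, 2.05 and 4.003, whose part in this relation was not tested.

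Around the pathway, 5 lists of related genes were read in the same fit. Over all tested probe sets 49.7% had a lower mean log2 signal in ligand livers, and 5.58% had an unadjusted p under 0.05. The lists were chosen with earlier results of these data known, so nothing is read from their counts. In the side branches of kynurenine breakdown, 7 of 8 genes had a lower mean log2 signal in ligand livers and 1 a higher one. Their median difference was -0.11 on the log2 scale, and 0 passed in limma, with 1 at an unadjusted p under 0.05. That gene was GOT2, a mitochondrial aminotransferase that also acts on kynurenine. It had 8353, 10438 and 7024 in ligand animals 1 to 3, against 17061, 13849 and 10723 in vehicle animals 1 to 3. The groups did not overlap, and the log2 difference was -0.68 ± 0.22 (SE, limma adjusted p = 0.829).

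Other aminotransferases that make kynurenic acid from kynurenine had smaller differences than GOT2. KYAT3 had a log2 difference of 0.41 ± 0.33 (SE), KYAT1 -0.31 ± 0.26 (SE) and AADAT -0.11 ± 0.25 (SE). IDO1, the interferon-induced dioxygenase that serves the entry step outside hepatocytes, had 247, 412 and 391 in ligand animals 1 to 3, against 507, 274 and 769 in vehicle animals 1 to 3. Its groups overlapped, with a log2 difference of -0.46 ± 0.39 (SE) that was -0.84 without vehicle array 2 and -0.12 without vehicle array 3.

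For NAD salvage and conversion, the mean log2 signal in ligand livers was lower for 8 of 12 genes and higher for 4. The median difference was -0.15 on the log2 scale, and 0 passed in limma, with 1, NMRK2, at an unadjusted p under 0.05. Of all tested probe sets 5.58% lay there, and nothing is read from the count. NMRK2 and NMNAT2 reached the signal minimum of 129 only through the vehicle livers, so they entered the fit because that group was high. Without them 6 of 10 genes were lower, at a median difference of -0.15. NMRK2, a kinase that makes NAD precursor from nicotinamide riboside, had 63.7, 78.7 and 43.4 in ligand animals 1 to 3, against 314, 292 and 456 in vehicle animals 1 to 3. The ligand values were all under the minimum, and the log2 difference, -2.25 here, was -2.51 to -1.72 under the other settings that kept all arrays, so its size is not settled. The gene is known chiefly from muscle.

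NAMPT, the rate-limiting enzyme of salvage from nicotinamide, had 3843, 11007 and 7363 in ligand animals 1 to 3, against 8126, 10738 and 8271 in vehicle animals 1 to 3. Ligand animal 1 was low alone, and the log2 difference of -0.40 ± 0.33 (SE) became 0.01 without that array and -0.75 without ligand array 2. On its other probe sets in the fit the log2 difference lay between -0.59 and 0.11. NNMT, which methylates nicotinamide and so takes it out of salvage, had a log2 difference of -0.15 ± 0.19 (SE). Its other tested probe sets had -0.32 and 0.02. NMNAT1, the nuclear enzyme that joins both routes to NAD, had 0.19 ± 0.31 (SE) on the log2 scale, and the opposite sign, -0.31, on its other tested probe set. NMNAT2, its Golgi and cytosolic relative, had 105, 119 and 155 in ligand animals 1 to 3, against 185, 300 and 246 in vehicle animals 1 to 3, with the ligand values near the minimum.

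Of the NAD consumers, 10 of the 13 measured had a lower mean log2 signal in ligand livers and 3 a higher one. CD38 and SARM1 are among the 10 and reached the signal minimum only through the vehicle livers. The median difference was -0.28 on the log2 scale, or -0.27 without those genes, and 0 passed in limma, with 0 at an unadjusted p under 0.05. SIRT5 and SIRT3, mitochondrial deacylases that use NAD, had log2 differences of -0.48 ± 0.22 and -0.47 ± 0.23 (SE), and TNKS, a poly-ADP-ribosyltransferase, -0.41 ± 0.26 (SE). In these 3 of the 13 genes every ligand animal lay below every vehicle animal, against 4.96% of all tested probe sets. Nothing is read from that count, since the list was chosen with earlier results of these data known. A second SIRT5 probe set had a log2 difference of 0.10, while the other SIRT3 probe sets had -0.37 and -0.11.

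Tryptophan transport and its other fates went both ways, 5 of the 12 measured genes having a higher and 7 a lower mean log2 signal in ligand livers, at a median difference of -0.02 on the log2 scale. In limma 0 of the 12 passed, and 0 had an unadjusted p under 0.05. SLC3A2, the heavy chain of the large amino acid transporters, had a log2 difference of -0.48 ± 0.22 (SE), SLC16A10, an aromatic amino acid transporter, -0.55 ± 0.28 (SE), and WARS1, which charges tRNA with tryptophan, 0.53 ± 0.26 (SE). The other SLC16A10 probe sets had log2 differences of -0.51 and 0.36. In SLC3A2 the ligand animals lay below, and in WARS1 above, every vehicle animal. Of all tested probe sets 4.96% lay below in this way and 5.99% above, and nothing is read from the 2 genes.

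Among regulators and responsive genes, 10 of the 12 measured had a lower mean log2 signal in ligand livers and 2 a higher one, at a median difference of -0.18 on the log2 scale. In limma 0 passed, and 2 had an unadjusted p under 0.05, CEBPA and PPARA, against 5.58% of all tested probe sets. Nothing is read from that count. CEBPA, a transcription factor of the differentiated hepatocyte, had a log2 difference of -0.57 ± 0.22 (SE) with overlapping groups.

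PPARA, the fatty acid receptor that in rodents is known to lower ACMSD, had 3115, 2548 and 3234 in ligand animals 1 to 3, against 4849, 3371 and 4620 in vehicle animals 1 to 3. The groups did not overlap, the log2 difference was -0.52 ± 0.21 (SE, limma adjusted p = 0.874), and all 6 tested PPARA probe sets had a negative log2 difference, the other 5 between -0.81 and -0.17. AHR, a receptor that kynurenine can activate, had -0.55 ± 0.32 (SE) with overlapping groups, or -0.76 without vehicle array 3 and -0.24 without vehicle array 2. TAT, a liver gene that glucocorticoids induce as they do TDO2, had -0.18 ± 0.19 (SE), and its other tested probe sets had -0.22 and 0.53.

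**Figure D4:**
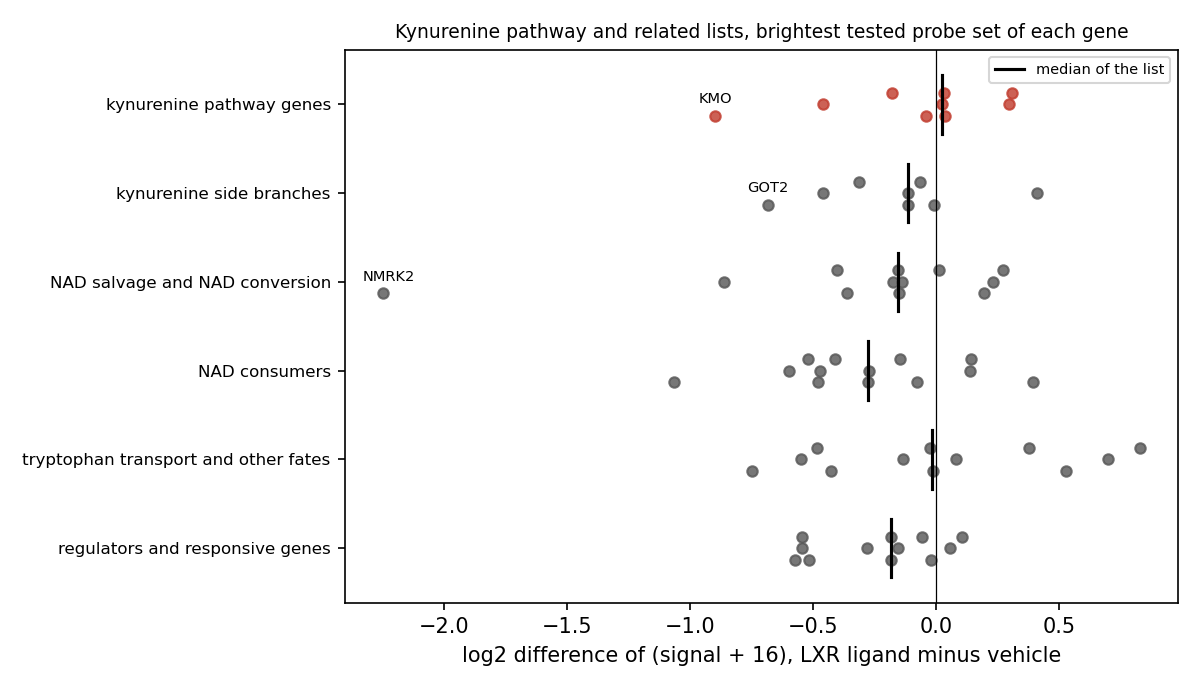
Log2 difference of (signal + 16), LXR ligand minus vehicle (horizontal axis), for the brightest tested probe set of each gene in the kynurenine pathway (red) and in the 5 related lists (grey), with list medians as black bars. The medians lie between -0.28 and 0.02, and NMRK2, labelled at -2.25, reached the signal minimum only through the vehicle livers.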

How the data were processed

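Liver RNA of 6 macaques was hybridised to a human Affymetrix array, 1 animal on each, per the labels and design text. The authors deposited 1 intensity for each probe set, unlogged; the submitters' processing notes name MAS5, and its version and scaling target are not given in the sources used here; the 2% trimmed mean was 500.1 on every array. Detection calls were not used. Gene names come from GEO's platform annotation, in which 41097 probe sets have 1 symbol, 1801 several and 11777 none; some listed genes were not analysed here.

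Values were taken as log2(signal + 16), which understates changes at low signal. After removal of 62 controls, probe sets whose mean over the 6 arrays reached the median of all means, 129, were tested. The two-sided test came from limma 3.58.1 in R 4.3.3 (lmFit, then eBayes with its trend option on), without covariates, adjusted by Benjamini-Hochberg over all 27304 probe sets tested at a threshold of 0.05. The fit was also run on simulated data with planted differences larger than those of the pathway probe sets. That run does not bear on differences of their size. A gene is represented by its brightest probe set. Figures used Python 3.11.15 and matplotlib 3.10.9.

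The members and lists were chosen with earlier results of these data known. All 9 members were described with every probe set; of each related list, the 3 genes of smallest unadjusted p and NAMPT, NMNAT1, NNMT, AADAT, IDO1, TAT and PPARA were named whatever their values. Marker lists of T and NK cells and of other myeloid cells gave 0 passing genes, with median log2 differences of 0.12 over 3 measured genes and 0.02 over 5. Of the T and NK cell markers, CD8A reached the signal minimum only through the ligand livers. Without CD8A the median of that list was 0.0019. SREBF1, ABCG1 and MYLIP, known LXR targets read as a check, had log2 differences of 2.57, 1.31 and 1.36, with all ligand arrays above the vehicle arrays; the other SREBF1 probe set had -0.60 and those of ABCG1 0.04 to 1.39. Alternatives were quantile normalization, pseudocounts of 1 and 64, centring on the array median, other filters, eBayes settings, a block for the replicate number, array weights, a threshold of 0.10, averaging the probe sets of a gene and leaving out each array; for the related genes they were added after seeing the data.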

Additional observations from a re-analysis of the deposited data

How the results depend on the processing

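No probe set of the pathway passed under any alternative run. Over the whole array 0 passed, except that leaving out 1 array in turn gave 0 to 1: SREBF1 without ligand array 2, and ACAA2, named after its values were seen, without vehicle array 2. The median log2 difference of the 9 genes, 0.024, ran from -0.23 to 0.17 when each array was left out, with -0.23 without vehicle array 3 and 0.17 without vehicle array 1, and was -0.040 when a gene's probe sets were averaged; the cause was not tested. With the replicate block 0 probe sets passed, 0 of them in the pathway, and the median was 0.024. At an unadjusted p under 0.05 there were 3 of the 16 pathway probe sets with the block and 2 without it. Over the array there were 1707 and 1523, and nothing is read from these counts. The labels do not say that the numbers pair animals, so they were not taken as pairs. Animals with the same number had deviations from their group means that correlated at 0.040, -0.031 and 0.070. All 262 alternative values of the single pathway probe sets moved by less than the SD between replicates. For many of them that outcome was fixed beforehand, so no stability is read from it. Leaving out 1 of 3 arrays cannot shift a difference by that SD, and the filters, eBayes settings and replicate block leave it unchanged. Many values near 0 changed sign, as did AFMID, 0.48 without ligand array 1, and NADSYN1, -0.041 when its probe sets were averaged. NMRK2 had a log2 difference of -1.72 with a pseudocount of 64, by construction smaller for so dim a signal. Signal near the minimum of 129 limits KMO 205307_s_at and NMRK2.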
